A study of Mus musculus with 18 samples.

Results

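The 8 genes described here are the embryonic and adult globin genes of the mouse that were chosen by symbol, together with Alas2, the enzyme that starts heme synthesis in red cells. They are Hbb-y, Hbb-bh1, Hba-x, Hba-a1, Hba-a2, Hbb-bs, Hbb-bt and Alas2, out of 14686 genes listed in at least 1 of 3 deposited tables, and they were chosen as a readout of blood content and globin switching in embryonic limb buds. RNA was measured in 18 libraries, 3 in each of 6 groups. The CD1 comparison set hindlimb buds of wild-type CD1 embryos at e11.0 against forelimb buds of wild-type CD1 embryos at e10.5, so the effect of limb type and that of age cannot be told apart there. The other comparisons set hindlimb buds of Pitx1 null embryos against those of Pitx1 wild type embryos, once at e11.0 and once at e11.5, with BALB/c given as the strain in all of these groups. Pitx1 is a homeodomain transcription factor of the hindlimb, and the labels do not describe the null allele further. Libraries of CD1 and of the e11.0 Pitx1 groups were strand-specific and depleted of ribosomal RNA, whereas mRNA was enriched at e11.5, where replicates 1 and 2 kept the strand and replicate 3 did not. Replicates 1 and 2 of all groups carry 1 run number in their titles, and replicate 3 carries another at e11.0, yet another at e11.5 and none in CD1. The CD1 fit set replicate 3 apart in the same way, although no run is stated for it. The labels do not state whether replicates are separate embryos or pools, so the p-values speak of the spread between these libraries, which may be technical.

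Globins carry oxygen as tetramers of alpha-like and beta-like chains around heme. The first red cells of the mouse embryo arise in the yolk sac and circulate as nucleated cells. These primitive cells make the embryonic chains, and as they mature the beta-like chain encoded by Hbb-bh1 gives way to that of Hbb-y, while the alpha-like chain of Hba-x gives way to those of Hba-a1 and Hba-a2. Red cells of the definitive lineage, later produced in the fetal liver, use the adult beta chains of Hbb-bs and Hbb-bt with the adult alpha chains. A limb bud has its own vessels, so its RNA holds that of the blood inside it.

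In GRCm38, Hbb-y (ENSMUSG00000052187, chr7:103851749-103853216), Hbb-bh1 (ENSMUSG00000052217, chr7:103841637-103843164), Hbb-bs (ENSMUSG00000052305, chr7:103826534-103828096) and Hbb-bt (ENSMUSG00000073940, chr7:103812524-103813996) lie on the minus strand of chromosome 7. On the plus strand of chromosome 11 lie Hba-x (ENSMUSG00000055609, chr11:32276400-32278116), Hba-a1 (ENSMUSG00000069919, chr11:32283511-32284465) and Hba-a2 (ENSMUSG00000069917, chr11:32296489-32297298). Alas2 (ENSMUSG00000025270, chrX:150547375-150570638) is on the plus strand of the X chromosome. All are annotated as protein-coding, and both globin clusters are arranged along the transcribed strand in the order embryonic, then adult. Hbb-bs with Hbb-bt, and Hba-a1 with Hba-a2, are near-identical copies whose reads the authors' counting may have split or dropped. Single values of these 4 genes are therefore uncertain, and sums of each pair are given beside them. A sum does not restore dropped reads. As background, the GRCm38 sequence carries the s haplotype of the adult beta genes, BALB/c mice carry the d haplotype, and CD1 is an outbred stock. The part of the haplotype in the values was not tested. Hba-a2 had no row in the CD1 table and was not analysed there, which leaves 7 of the 8 genes.

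The promoters of 6 of these genes are printed because they drive the transcripts whose balance is described here, and because the members share short letters in them. Each line gives the 120 bases before the RefSeq start of the gene (GRCm38.p6), read 5′ to 3′ on the gene's own strand. Capitals mark the CACCC box, the CCAAT box, the TATA box with the letters TATAA, and the GATA site with the letters GATAA, each on either strand. When it lies on the opposite strand, the CACCC box reads GGGTG, the CCAAT box reads ATTGG and the GATA site reads TTATC. The 4 motifs do not overlap each other in these windows.
Hbb-y, chr7:103853208-103853327, minus strand: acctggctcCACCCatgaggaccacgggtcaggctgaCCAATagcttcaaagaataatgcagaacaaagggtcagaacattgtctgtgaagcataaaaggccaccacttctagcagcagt
Hbb-bs, chr7:103827929-103828048, minus strand: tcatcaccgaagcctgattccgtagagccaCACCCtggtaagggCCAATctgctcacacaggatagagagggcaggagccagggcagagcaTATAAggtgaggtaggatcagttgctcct
Hbb-bt, chr7:103813924-103814043, minus strand: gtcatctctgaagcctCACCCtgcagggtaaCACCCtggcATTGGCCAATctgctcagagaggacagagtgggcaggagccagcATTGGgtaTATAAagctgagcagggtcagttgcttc
Hba-x, chr11:32276480-32276599, plus strand: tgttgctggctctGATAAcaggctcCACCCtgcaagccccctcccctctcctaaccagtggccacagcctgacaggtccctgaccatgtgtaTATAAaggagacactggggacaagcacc
Hba-a1, chr11:32283552-32283671, plus strand: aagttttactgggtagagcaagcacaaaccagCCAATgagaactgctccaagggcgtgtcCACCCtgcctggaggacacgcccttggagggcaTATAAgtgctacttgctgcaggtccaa
Alas2, chrX:150547297-150547416, plus strand: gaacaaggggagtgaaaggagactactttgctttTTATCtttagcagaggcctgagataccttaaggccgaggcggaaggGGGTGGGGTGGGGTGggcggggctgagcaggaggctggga

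All 7 promoters at hand, Hba-a2 included, held CACCC, against 31.7% of all 32851 RefSeq promoter windows of the same length. CCAAT was in 5 of 7, against 21.3% of all windows, and TATAA in 5 of 7, against 11.8%. GATAA was in the windows of Hba-x and Alas2, 2 of 7, against 3449 of all windows. In Hbb-bs and Hbb-bt the CACCC nearest the start began 90 and 89 bases before it, CCAAT on the gene's strand 76 and 75 bases, and TATAA 29 and 28 bases. The Hbb-bt window held a further CACCC at 104 bases before the start and ATTGG at 80 and 36 bases. In global alignments that allow gaps, the windows of Hbb-bs and Hbb-bt were the same at 77.5% of positions, and those of Hba-a1 and Hba-a2 at 97.5%. Hbb-bs and Hbb-y matched at 62.5%. These matches are descriptions of the letters and say nothing of which factors bind.

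The labels were checked on the libraries before the globins were read. Pitx1 fell in the null hindlimbs, to 22.9, 19.3 and 21.3 CPM at e11.0, against 136, 114 and 122 CPM in wild type, and to 72.1, 78.8 and 88.6 CPM at e11.5, against 319, 329.6 and 365 CPM in wild type. CPM is the read count of a gene per 1000000 reads on the listed genes. Tbx4, a hindlimb factor, stood at 114 to 134 CPM in CD1 hindlimb and at 5.70 to 5.97 CPM in forelimb. Prrx1, a limb bud mesenchyme factor, was above 300 CPM in every library. Depth was 17.4 to 53.6 M reads a library (M, 1000000), and the fewest reads behind a member's value, 40, were those of Hbb-bt in wild type replicate 1 at e11.0. The myocardial markers searched for were listed in no table, and the liver and yolk sac endoderm markers numbered 1 of 8 in CD1, 4 of 8 at e11.0 and 0 of 8 at e11.5. Levels in different tables were normalized separately, and mRNA enrichment and ribosomal depletion differ between them, so no test was made across tables.

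Globin transcripts made up 0.258% to 1.755% of the reads of a library, and Hbb-y alone took the largest part of them. Divided by exonic length, so that genes can be compared, the level of Hbb-y was the highest of the 8 in all 18 libraries. Exonic length covers every annotated exon of a gene. For several genes, Hba-x, Hba-a1 and Hbb-bs among them, the annotated gene begins well upstream of the RefSeq start. Their levels per kb may therefore be understated, which was not tested. In CPM per kb it ranged over 3242 to 4408 in CD1 hindlimb and 2978 to 3008 in CD1 forelimb, over 5666 to 17850 in null and 4348 to 10800 in wild type hindlimb at e11.0, and over 1875 to 2561 in null and 2157 to 2856 in wild type hindlimb at e11.5. Hbb-bh1 came next in the CD1 and e11.0 groups, at 1368 to 1749 in CD1 hindlimb and 1615 to 1702 in CD1 forelimb, and at 2444 to 6690 in null and 2003 to 4291 in wild type hindlimb at e11.0. At e11.5 Hba-x stood above Hbb-bh1 instead, at 859 to 944 CPM per kb in null and 882 to 1061 in wild type, against 661 to 662 for Hbb-bh1 in null and 578 to 783 in wild type. The ranges of these neighbours in the order did not overlap within a group, except for Hbb-y and Hbb-bh1 in null hindlimb at e11.0, where replicate 3 was far above the others for both genes. Hba-a1 was the highest of the adult chains in every group, at 97.8 to 299.5 CPM per kb over the 18 libraries. Below it the order of Hbb-bs, Hba-a2, Alas2 and Hbb-bt differed between groups, and several neighbours overlapped. In wild type hindlimb at e11.0, for example, Hba-a2 ranged over 28.8 to 62.5 CPM per kb and Hbb-bs over 26.5 to 62.9.

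**Figure D1:**
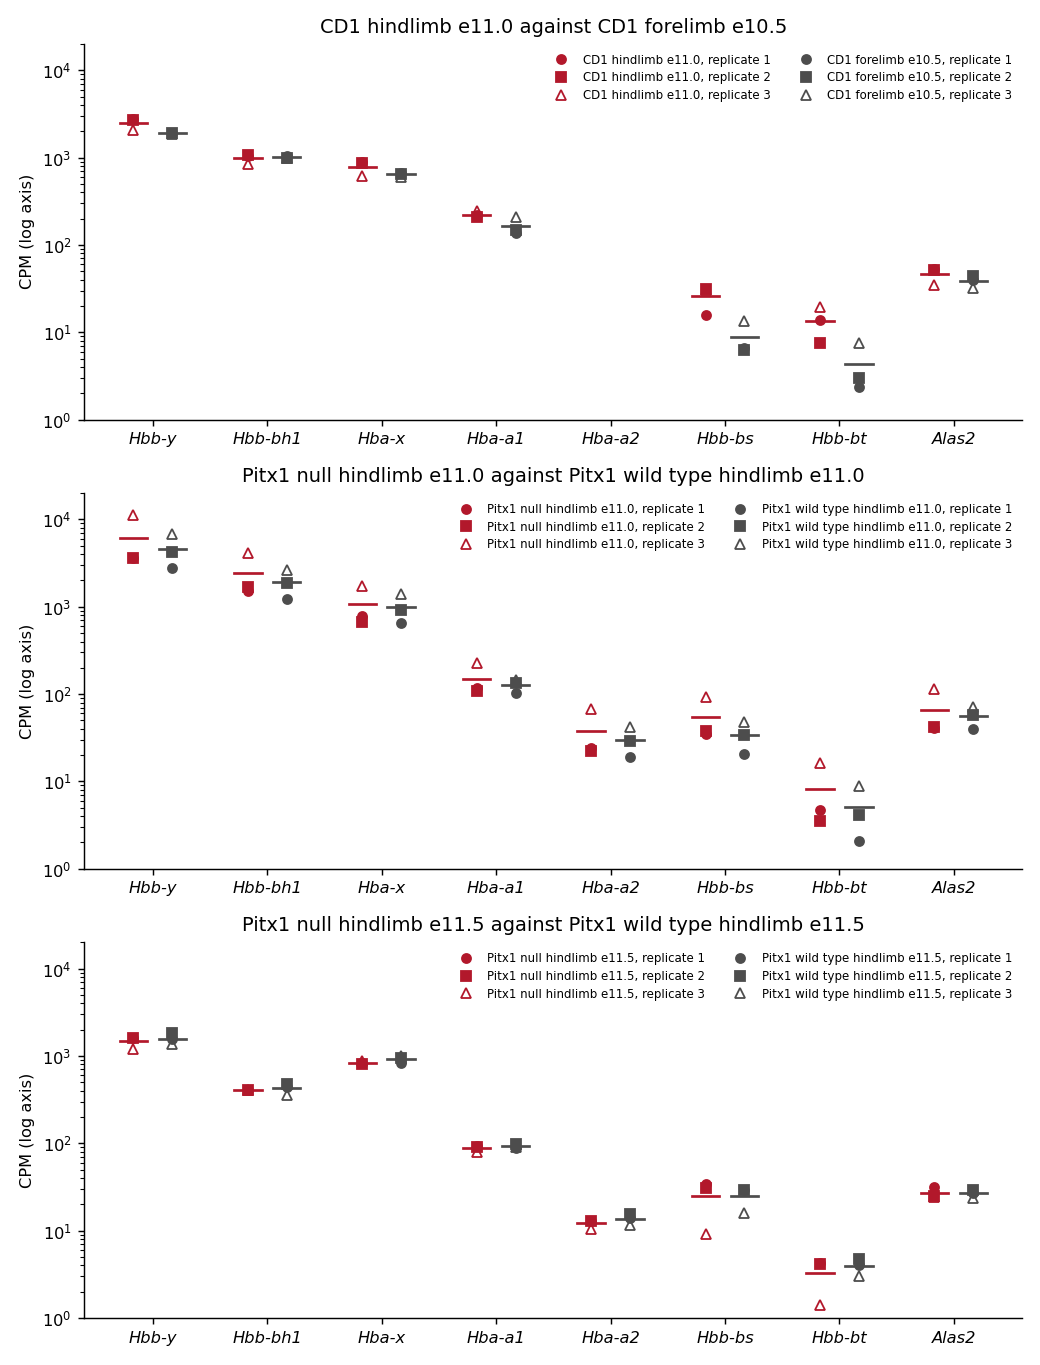
Level of each gene in CPM (log axis) in each library of the 3 tables, with replicates 1, 2 and 3 as circle, square and open triangle and the group mean as a line; Hba-a2 had no row in CD1. Adult beta genes Hbb-bs and Hbb-bt sit higher in CD1 hindlimb than in forelimb, replicate 3 is the highest of each e11.0 group, and replicate 3 is low for the adult beta genes at e11.5.

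The CD1 comparison asks what sets hindlimb buds at e11.0 apart from forelimb buds at e10.5. Here 4 of 7 genes were higher in hindlimb by limma's test (adjusted p under 0.05 over all 13540 listed genes) and 0 were lower, where 2.41% of all listed genes were called higher and 3.46% lower. The adult beta genes differed most, the embryonic Hbb-y and the adult Hba-a1 differed less, and Hbb-bh1 was not called. The groups of 3 libraries did not overlap for 3 of 7 genes, where that held for 11.2% of all listed genes. These are bulk samples, so fewer cells of a type and less RNA per cell cannot be told apart.

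Among the embryonic chains, Hbb-y had 2790, 2707 and 2052 CPM in hindlimb replicates 1, 2 and 3, against 1904, 1898 and 1885 CPM in forelimb. Every hindlimb library was above every forelimb library, with replicate 3 the closest. The log2 fold change was 0.40 ± 0.08 (SE, on the log2(CPM + 1) scale, as are all below; limma adjusted p = 0.0224). Hbb-bh1 had 1054, 1072 and 838 CPM in hindlimb, against 1043, 999 and 989.8 CPM in forelimb. Its groups overlapped, with hindlimb replicate 3 the lowest of the 6 libraries, and the log2 fold change was -0.04 ± 0.07 (limma adjusted p = 0.763). Hba-x had 888, 865 and 611 CPM in hindlimb, against 667, 655 and 603 CPM in forelimb. Replicates 1 and 2 were higher in hindlimb, while hindlimb replicate 3 lay among the forelimb values, and the log2 fold change of 0.28 ± 0.07 did not pass (limma adjusted p = 0.0615). With replicates 1 and 2 alone, which share a run, Hba-x passed at 0.41 (limma adjusted p = 0.00867).

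Among the adult chains, Hba-a1 had 219.5, 207 and 243 CPM in hindlimb, against 137, 149 and 208 CPM in forelimb. It was higher in each same-numbered pair of libraries, although forelimb replicate 3 reached the hindlimb values, and the log2 fold change was 0.45 ± 0.07 (limma adjusted p = 0.00519). Hbb-bs had 16.0, 31.5 and 30.5 CPM in hindlimb, against 6.62, 6.33 and 13.5 CPM in forelimb. Its groups did not overlap, and the log2 fold change was 1.47 ± 0.20 (limma adjusted p = 0.00224). Hbb-bt had 13.7, 7.57 and 19.6 CPM in hindlimb, against 2.39, 2.98 and 7.55 CPM in forelimb. Hindlimb replicate 2 and forelimb replicate 3 were nearly level, and the log2 fold change was 1.497 ± 0.178 (limma adjusted p = 0.000923). Since reads of these copies may be split between them, their sum is given as well, though it would still lack any dropped reads. It was 29.6, 39.0 and 50.1 CPM in hindlimb, against 9.01, 9.31 and 21 CPM in forelimb, a log2 fold change of 1.60 ± 0.13 (limma adjusted p = 9.73e-05) with no overlap. Alas2 had 52.5, 51.9 and 34.5 CPM in hindlimb, against 39.8, 44.3 and 32.5 CPM in forelimb. The difference held its sign in 3 of 3 pairs, but the groups overlapped and the log2 fold change of 0.23 ± 0.07 did not pass (limma adjusted p = 0.0729).

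Hbb-bs, Hbb-bt and Hba-a1 passed with any 1 of the 6 libraries left out. Hbb-y did not pass without hindlimb replicate 1 (limma adjusted p = 0.128), without hindlimb replicate 2 (0.127) or without forelimb replicate 2 (0.0873), with log2 fold changes of 0.34, 0.37 and 0.35. With no term for replicate 3, 0 of 7 genes passed, and 13 of all listed genes did. By the authors' deposited adjusted p, which called more of all listed genes than limma did, Hba-x (0.0194) and Alas2 (0.0198) also passed. Hbb-y, Hba-a1, Hbb-bs and Hbb-bt passed there too, and Hbb-bh1 did not (0.7575).

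**Figure D2:**
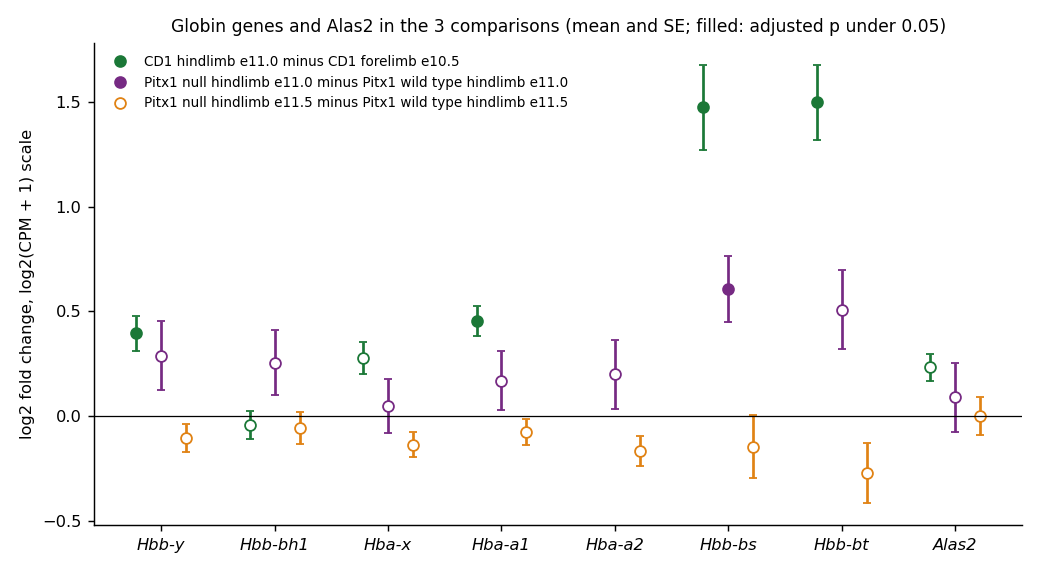
Log2 fold change (hindlimb minus forelimb in CD1, null minus wild type in the Pitx1 groups) with its SE for each gene, with filled points for adjusted p under 0.05. In CD1 the 4 filled points are Hbb-y, Hba-a1, Hbb-bs and Hbb-bt, at e11.0 Hbb-bs alone is filled, and at e11.5 none is.

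Few other genes of the red cell and of heme synthesis passed between CD1 hindlimb and forelimb. The 6 lists of heme synthesis, red-cell membrane, red-cell cytosol, iron, erythroid transcription factors and globin switching regulators had 53 listed genes, of which 3 were higher and 2 lower, with a median log2 fold change of 0.03, against 0.01 over all listed genes. Rhd, a membrane protein of the red cell, had 9.73, 10.2 and 7.57 CPM in hindlimb, against 6.58, 7.10 and 5.44 CPM in forelimb, and was higher by 0.46 ± 0.08 (log2, SE; limma adjusted p = 0.0086). Alad, the enzyme after Alas2 in heme synthesis, was higher by 0.29 ± 0.05 (limma adjusted p = 0.00539). Lin28b, an RNA-binding protein tied to fetal red-cell programmes in human and mouse and present across the early embryo, was higher by 0.47 ± 0.06 (limma adjusted p = 0.00219). Sox6, a repressor of Hbb-y in mouse definitive red cells that cartilage precursors also use, was lower (-0.47 ± 0.08; limma adjusted p = 0.00779). Nr2c2, a nuclear receptor that binds embryonic globin promoters, was lower as well (-0.21 ± 0.04; limma adjusted p = 0.0206). With the replicate number as a block Nr2c2 did not pass (limma adjusted p = 0.0587), and left out singly, any CD1 library but forelimb replicate 1 ended its call (limma adjusted p from 0.0623 to 0.145). Sox6 did not pass without hindlimb replicate 1 (limma adjusted p = 0.0512), hindlimb replicate 3 (0.0525) or forelimb replicate 3 (0.0548), nor did Rhd without hindlimb replicate 2 (0.0581). Lin28b, Sox6 and Nr2c2 are not restricted to red cells, so these values describe the whole bud.

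Markers of other cell types were read beside these values. Of 12 endothelial markers 0 passed, with summed levels of 333 to 437 CPM in hindlimb and 318.5 to 427 CPM in forelimb. Of the macrophage markers 0 of 7 listed passed, at 19.0 to 24.0 CPM in hindlimb and 14.6 to 22.6 CPM in forelimb. Megakaryocyte and platelet markers had 3 of 8 listed and 0 called, at 13.1 to 17.5 CPM in hindlimb and 8.86 to 11.7 CPM in forelimb, so these sums did not overlap. Apob was the only listed marker of liver and yolk sac endoderm, with 3.28, 3.31 and 1.5 CPM in hindlimb, against 5.47, 5.10 and 2.33 CPM in forelimb, and it was called lower (-0.50 ± 0.10; limma adjusted p = 0.0131), though not without forelimb replicate 3 or any 1 hindlimb library (limma adjusted p from 0.0501 to 0.0733). Of 10 surface ectoderm markers Trp63 was lower (-0.26 ± 0.06; limma adjusted p = 0.0444, and 0.0859 with the replicate block). Left out singly, any CD1 library but forelimb replicate 1 ended this call. Of 12 limb bud mesenchyme genes 3 were higher, Pitx1 and Tbx4 of the hindlimb and Hand2, and 6 were lower, Tbx5 of the forelimb, Msx2, Fgf10, Twist1, Lmx1b and Shox2, the last 3 without a call under the replicate block. Of these 9 calls, 5 to 9 were kept with 1 library left out. The 12 genes summed to 1445 to 1877 CPM in hindlimb and 1270 to 1798 CPM in forelimb. The part of these cells in the globin values was not tested.

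At e11.0 the Pitx1 comparison asks what depends on Pitx1 in the hindlimb. By limma, Hbb-bs was called higher in null hindlimbs, 1 of 8 genes, and 0 were lower, where 4.73% of all 14027 listed genes were called higher and 8.41% lower. The groups were apart for 0 of 8 genes, where that held for 18.5% of all listed genes. All 8 log2 fold changes were above 0, between 0.05 and 0.61, while the median over all listed genes was -0.07. The spread between libraries of 1 group was wide, with replicate 3 the highest in both groups for every gene.

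Hbb-y had 3587, 3637 and 11300 CPM in null hindlimbs, against 2753, 4288 and 6837 CPM in wild type. Null replicate 3 was the highest library, null replicates 1 and 2 lay between wild type replicates 1 and 2, and the log2 fold change of 0.29 ± 0.17 did not pass (limma adjusted p = 0.233). Hbb-bh1 had 1498, 1677 and 4101 CPM in null, against 1228, 1874 and 2630 CPM in wild type (0.26 ± 0.15; limma adjusted p = 0.256). Hba-x had 790.5, 677 and 1740 CPM in null, against 656, 919 and 1389 CPM in wild type (0.05 ± 0.13; limma adjusted p = 0.799). In these 3 embryonic genes the order of libraries was alike, in that null was above wild type in pairs 1 and 3 and below it in pair 2.

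The adult alpha genes followed the same order. Hba-a1 had 117, 107 and 224 CPM in null, against 102, 135 and 143 CPM in wild type (0.17 ± 0.14; limma adjusted p = 0.4). Hba-a2 had 24.1, 22.03 and 67.4 CPM in null, against 19.2, 29.3 and 41.7 CPM in wild type (0.20 ± 0.16; limma adjusted p = 0.403). Summed, they had 141, 129 and 292 CPM in null, against 121, 164 and 185 CPM in wild type (0.18 ± 0.14; limma adjusted p = 0.395). The adult beta genes stood further up. Hbb-bs had 35.4, 37.3 and 92.2 CPM in null, against 20.4, 33.9 and 48.3 CPM in wild type, higher in 3 of 3 pairs although the groups overlapped, and passed with 0.61 ± 0.16 (limma adjusted p = 0.0355). Hbb-bt had 4.73, 3.5 and 16.4 CPM in null, against 2.06, 4.14 and 8.91 CPM in wild type, and at 0.51 ± 0.19 did not pass (limma adjusted p = 0.0862). The sum of Hbb-bs and Hbb-bt was 40.1, 40.8 and 108.5 CPM in null, against 22.4, 38.0 and 57.2 CPM in wild type (0.61 ± 0.16; limma adjusted p = 0.0367). Alas2 had 41.3, 42.3 and 114 CPM in null, against 40.1, 57.4 and 71.9 CPM in wild type (0.09 ± 0.17; limma adjusted p = 0.717).

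Single libraries decided how many of the 8 genes passed at e11.0, and they moved the number of calls over all listed genes widely as well. Without wild type replicate 2 all 8 were called higher, where 5273 of all 14027 listed genes were called in either direction. Without null replicate 2, null replicate 3, wild type replicate 1 or wild type replicate 3 the count was 0, and without null replicate 1 it was 1. With no term for the run the count was 0 as well. When either replicate 3 is left out, the run term takes up the other. The fold changes then equal those of replicates 1 and 2 alone, where the count was 0 too, so these settings are not separate checks. Over all listed genes most calls were also lost with no run term and with replicates 1 and 2 alone, as given in the closing section. The counts of 0 in those settings are therefore not particular to the 8 genes. The quasi-likelihood test of edgeR on recovered reads called 2, Hbb-bs and Hbb-bt (adjusted p = 0.0446 for Hbb-bt), where it called 1734 of all listed genes. By the authors' deposited table, the number past an adjusted p of 0.05 was 5 of 8, all higher, where 2895 of all listed genes passed. The deposited log2 fold changes of these 5 were 0.47 for Hbb-y, 0.42 for Hbb-bh1, 0.41 for Hba-a2, 0.84 for Hbb-bs and 0.85 for Hbb-bt.

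**Figure D3:**
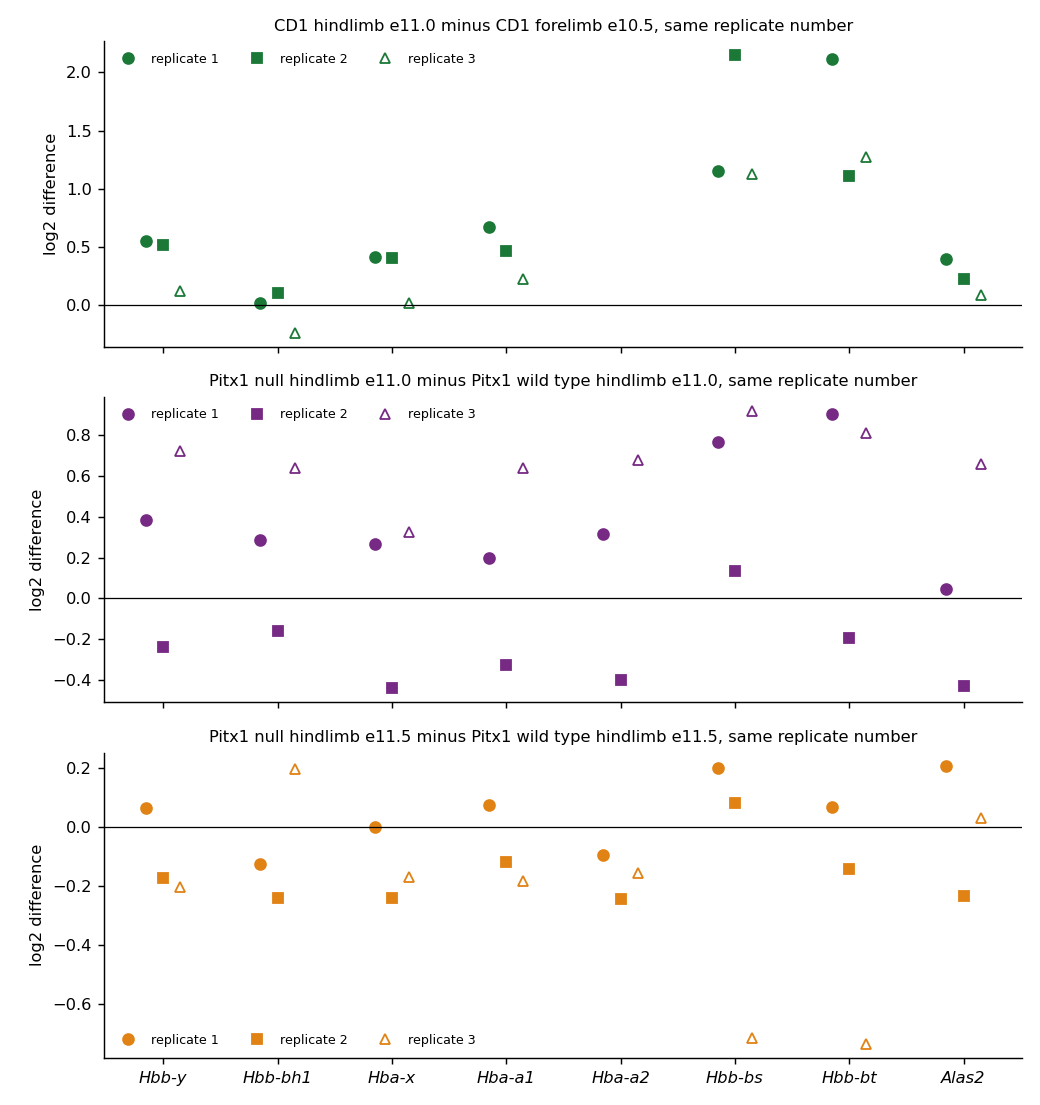
Difference in log2(CPM + 1) between same-numbered libraries (hindlimb minus forelimb in CD1, null minus wild type in the Pitx1 groups) for each gene, with replicates 1, 2 and 3 as circle, square and open triangle. At e11.0 replicate 2 is below 0 for every gene but Hbb-bs, and at e11.5 replicate 3 is near -0.7 for Hbb-bs and Hbb-bt.

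The 6 erythroid lists had 54 listed genes at e11.0, of which 1 was higher and 3 lower in null hindlimbs, with a median log2 fold change of 0.03. Tfrc, the transferrin receptor that brings iron into red-cell precursors and other growing cells, was higher with 502, 522 and 454 CPM in null, against 365, 465 and 333 CPM in wild type (0.36 ± 0.09; limma adjusted p = 0.032). Lin28b (-0.30 ± 0.07; limma adjusted p = 0.0229), the histone methyltransferase Ehmt2 (-0.28 ± 0.08; 0.0475) and the DNA methyltransferase Dnmt1 (-0.35 ± 0.09; 0.0323) were lower, and all are widely expressed. None of the 4 passed without null replicate 2, null replicate 3, wild type replicate 1 or wild type replicate 3, and without null replicate 1 neither Lin28b nor Ehmt2 did. With the replicate number as a block in place of the run term the count was 1 higher and 6 lower. Trimmed-mean scaling gave 1 higher and 1 lower, and over all listed genes it turned 664 higher and 1179 lower calls into 1067 higher and 520 lower. The 14 red-cell membrane genes, 13 of them listed, had 0 called in either direction and 11 of 13 above 0.

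Markers of other cell types differed between these libraries. Of 12 endothelial markers 9 were lower in null hindlimbs and 0 higher, with summed levels of 147 to 242 CPM in null and 238.5 to 320.4 CPM in wild type. Of those 9 calls 5 were kept under trimmed-mean scaling, 1 without null replicate 2, and 0 without null replicate 3, wild type replicate 1 or wild type replicate 3. Of 11 listed limb bud mesenchyme genes 7 were lower and 0 higher, with a median log2 fold change of -0.40, against -0.07 over all listed genes. They were Pitx1, Tbx4, Lmx1b, Shox2, Hand2, Msx1 and Prrx1, and the summed list had 799.5 to 1116 CPM in null and 1193 to 1540 CPM in wild type, without overlap. Under trimmed-mean scaling 6 of these calls were kept, against 4 without null replicate 3 or wild type replicate 3 and 2 without wild type replicate 1. Of 10 surface ectoderm markers 5 were higher, with sums of 417 to 930.2 CPM in null and 313.5 to 774 CPM in wild type, and 1 of those 5 calls was kept without null replicate 1, 5 without wild type replicate 2 and 0 without any other single library. The 4 listed liver and yolk sac endoderm markers summed to 5.10 to 96.9 CPM in null and 19.2 to 52.1 CPM in wild type with 0 called, and Afp among them had 2.39, 53.9 and 32.8 CPM in null, against 9.31, 14.2 and 31.4 CPM in wild type. Among platelet markers Pf4 was higher in null (0.48 ± 0.12; limma adjusted p = 0.0348), 1 of 4 listed, but not without null replicate 2 or 3 or wild type replicate 1 or 3 (limma adjusted p from 0.12 to 0.197). The macrophage sums overlapped, at 20.7 to 24.9 CPM in null and 20.9 to 24.96 CPM in wild type, with 0 of 8 listed called. Whether these cells have a part in the globin values was not tested.

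At e11.5 none of the 8 genes passed in either direction by limma, edgeR or the authors' deposited adjusted p, where limma called 2.83% of all 13478 listed genes higher and 7.96% lower. At an unadjusted limma p under 0.05 the count was 1, Hba-x (unadjusted p = 0.0488), where 4043 of all 13478 listed genes were under it. Median-ratio scaling left the count at 0 while over all listed genes it turned 382 higher and 1073 lower calls into 743 and 919. The groups were apart for 0 of 8 genes, against 16.5% of all listed genes.

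Hbb-y had 1621, 1603 and 1187 CPM in null hindlimbs, against 1549, 1808 and 1365 CPM in wild type (-0.10 ± 0.07; limma adjusted p = 0.337). Hbb-bh1 had 405, 406 and 406 CPM in null, against 441, 479.8 and 354 CPM in wild type (-0.06 ± 0.08; limma adjusted p = 0.658). Hba-x had 829, 806 and 885 CPM in null, against 827.5, 953 and 995 CPM in wild type (-0.14 ± 0.06; limma adjusted p = 0.164). The groups overlapped in each of these genes. Hba-a1 had 92.3, 91.4 and 79.4 CPM in null, against 87.5, 99.2 and 90.3 CPM in wild type (-0.07 ± 0.06; limma adjusted p = 0.444). Hba-a2 had 12.9, 12.9 and 10.4 CPM in null, against 13.8, 15.5 and 11.7 CPM in wild type (-0.16 ± 0.07; limma adjusted p = 0.167). Their sum was 105, 104 and 89.8 CPM in null, against 101.4, 114.7 and 102 CPM in wild type, with a log2 fold change of -0.09 ± 0.06 (limma adjusted p = 0.349).

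The adult beta genes parted by run in both groups. Hbb-bs had 34.0, 31.0 and 9.20 CPM in null, against 29.4, 29.3 and 15.8 CPM in wild type, so replicate 3, the unstranded library, was the lowest in both groups and the lower in null (-0.14 ± 0.15; limma adjusted p = 0.554). Hbb-bt had 4.23, 4.18 and 1.42 CPM in null, against 3.996, 4.71 and 3.03 CPM in wild type (-0.27 ± 0.14; limma adjusted p = 0.24). Summed, the adult beta copies had 38.2, 35.2 and 10.6 CPM in null, against 33.4, 34.0 and 18.8 CPM in wild type, which overlapped (-0.18 ± 0.15; limma adjusted p = 0.469). Alas2 had 31.5, 24.6 and 24.3 CPM in null, against 27.2, 29.1 and 23.8 CPM in wild type, with a log2 fold change of 0.00 ± 0.09 (0.0007; limma adjusted p = 0.997).

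In the 6 erythroid lists 52 genes were listed at e11.5, with 0 higher and 3 lower in null hindlimbs and a median log2 fold change of -0.09, against -0.02 over all listed genes. Sox6 had 15.1, 11 and 10.3 CPM in null, against 29.1, 34.0 and 27.6 CPM in wild type, and was lower (-1.26 ± 0.11; limma adjusted p = 0.000645). Fam46c, a poly(A) polymerase of red-cell precursors, was lower (-0.45 ± 0.10; limma adjusted p = 0.0233), and so was the nuclear receptor Nr2c1 (-0.23 ± 0.06; limma adjusted p = 0.037). Sox6 passed with any 1 library left out. Fam46c did not without replicate 2 or replicate 3 of either group, nor did Nr2c1 without those or without wild type replicate 1. Other cell type markers that passed were lower in null for 2 of 8 platelet, 2 of 9 macrophage and 2 of 12 endothelial genes, and higher for 1 of 10 surface ectoderm genes. With the replicate block the platelet gene Gp1bb lost its call (limma adjusted p = 0.05085). Without replicate 3 of null or of wild type, 0 of these 7 platelet, macrophage, endothelial and ectoderm calls were kept, and without replicate 2 of either group only 1 platelet call was. Of 11 listed limb bud mesenchyme genes 4 were higher (Prrx2, Msx1, Msx2 and Fgf10) and 2 lower (Pitx1 and Tbx4), with sums of 1867 to 2454 CPM in null and 2341 to 2703 CPM in wild type. The sums of the other lists in null and wild type were 26.3 to 29.7 and 29.4 to 44.0 CPM for platelet, 27.9 to 34.9 and 34.7 to 41.6 CPM for macrophage, 409 to 500.4 and 471 to 530 CPM for endothelial, and 356 to 426 and 303 to 359 CPM for surface ectoderm genes. The part of these cells in the globin values was not tested.

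Shares within a library describe the balance between embryonic and adult chains, and they do not depend on how the library was scaled. Any reads of the adult copies that the counting dropped would be missing from them, and this was not tested. All shares are of CPM per kb, so the limit on exonic length given above holds for them and for the alpha-to-beta ratios below. The adult beta genes together made up 0.652%, 0.851% and 1.444% of beta-like globin in CD1 hindlimb, against 0.255%, 0.269% and 0.611% in CD1 forelimb, which is 0.983% ± 0.412 and 0.378% ± 0.202 (SD, n = 3 each). The groups did not overlap and the share was higher in 3 of 3 pairs. The exact two-sided permutation test gave p = 0.1, the smallest it can give with 3 against 3, and 0.3 after adjustment over 6 such tests. At e11.0 the share was 0.647%, 0.628% and 0.581% in null hindlimbs, against 0.461%, 0.506% and 0.498% in wild type, again with no overlap (exact permutation p = 0.1, adjusted 0.3). This difference of 0.13 percentage points was there in 3 of 3 pairs, pair 2 included, where the globin amount itself was lower in null. At e11.5 the groups overlapped, at 1.536%, 1.429% and 0.548% in null against 1.368%, 1.216% and 0.9% in wild type (exact permutation p = 1).

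Within the embryonic beta chains, the CD1 groups parted as well. Hbb-bh1 made up 27.9%, 28.8% and 29.2% of beta-like globin in CD1 hindlimb, against 36.0%, 35.1% and 34.9% in forelimb, and Hbb-y 71.5%, 70.4% and 69.3% in hindlimb, against 63.7%, 64.6% and 64.5% in forelimb. The gap between group means was 6.7 percentage points for Hbb-bh1 (-6.74), with SDs of 0.696 and 0.59. This share was singled out after its values were seen and has no test. In the Pitx1 groups it overlapped, at 27.1% to 32.1% in null and 28.3% to 31.4% in wild type at e11.0, and 20.2% to 26.0% in null and 20.9% to 22.4% in wild type at e11.5.

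Among alpha-like chains Hba-x held 74.9% ± 5.54 in CD1 hindlimb and 77.1% ± 4.97 in CD1 forelimb (SD, n = 3 each; exact permutation p = 0.5), where adult alpha is that of Hba-a1 alone. It held 82.3% ± 0.88 in null and 83.5% ± 2.3 in wild type hindlimbs at e11.0 (exact permutation p = 0.7), and 87.6% ± 1.43 in null and 88.0% ± 1.04 in wild type at e11.5 (exact permutation p = 0.6). All 3 gave adjusted values of 0.84. In CD1 the share was lowest in replicate 3 of both groups, 68.5% in hindlimb and 71.5% in forelimb, so replicate 3 differed from the other replicates by more than the groups did. Alpha-like levels per kb were 0.194 to 0.203 of beta-like levels in CD1 hindlimb and 0.186 to 0.195 in forelimb. They were 0.0905 to 0.125 in null and 0.113 to 0.134 in wild type at e11.0, and 0.306 to 0.414 in null and 0.315 to 0.431 in wild type at e11.5.

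**Figure D4:**
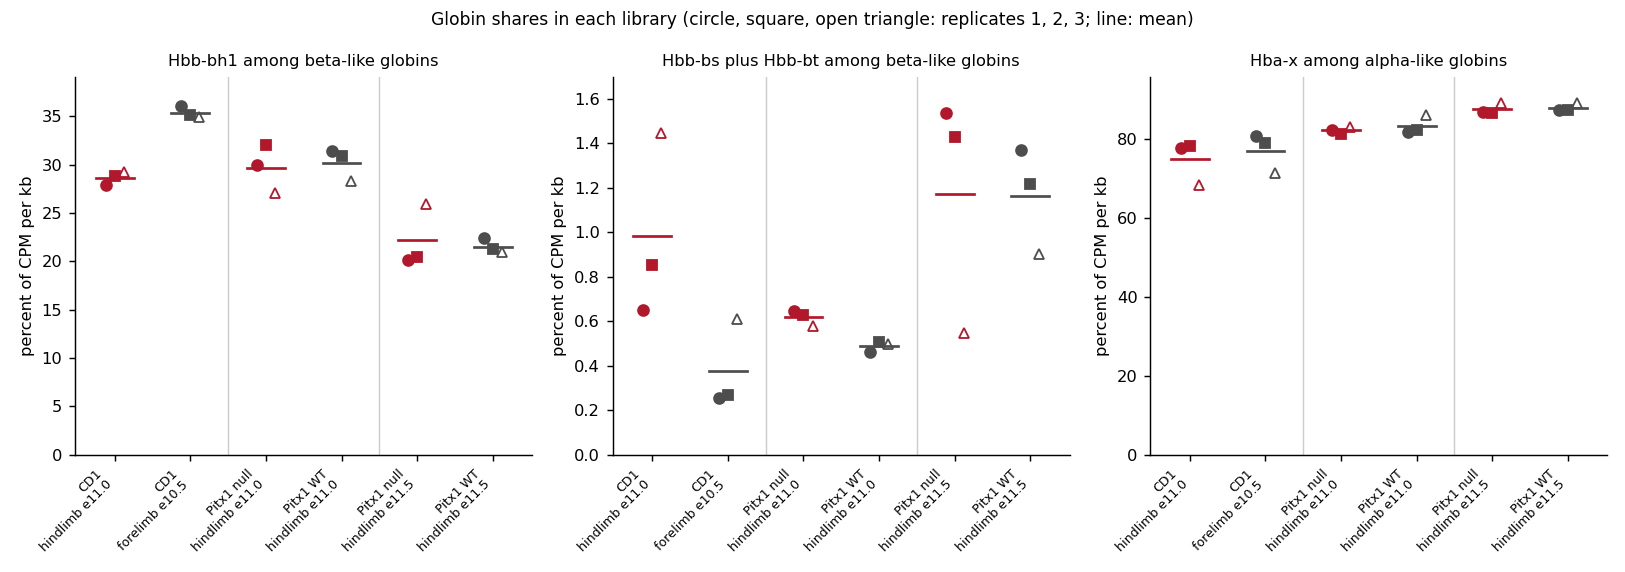
Share of Hbb-bh1 and of Hbb-bs plus Hbb-bt among beta-like globins, and of Hba-x among alpha-like globins, in percent of CPM per kb, for each library, with the mean as a line. The CD1 groups are apart for both beta-like shares and the e11.0 groups for adult beta only, while every e11.5 pair of groups overlaps.

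The split of adult beta reads between its copies varied in CD1. Hbb-bs held 51.6%, 79.2% and 58.7% of their summed CPM per kb in CD1 hindlimb, against 71.8%, 66.0% and 62.0% in CD1 forelimb. In the BALB/c libraries it was steadier, at 83.8% to 90.7% in null and 83.2% to 90.1% in wild type at e11.0, and at 85.6% to 88.0% in null and 82.6% to 87.1% in wild type at e11.5.

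The amount of red-cell RNA was compared with an index of 10 non-globin red-cell genes (Slc4a1, Epb42, Rhag, Rhd, Kel, Ermap, Hemgn, Trim10, Klf1 and Gata1), the mean of their log2(CPM + 1). The index was put together after the data had been seen and is a description only. It was 3.62, 3.66 and 3.14 in CD1 hindlimb, against 3.36, 3.43 and 3.16 in CD1 forelimb. At e11.0 it was 3.71, 3.64 and 4.87 in null, against 3.51, 4.05 and 4.33 in wild type, and at e11.5 it was 3.165, 2.968 and 3.003 in null, against 3.15, 3.138 and 3.142 in wild type. Globin reads ran alongside, at 0.498%, 0.49% and 0.38% of all reads in CD1 hindlimb, against 0.377%, 0.371% and 0.371% in CD1 forelimb. At e11.0 they were 0.606%, 0.617% and 1.755% in null, against 0.479%, 0.729% and 1.111% in wild type. At e11.5 they were 0.3%, 0.295% and 0.258% in null, against 0.295%, 0.339% and 0.284% in wild type. Every group overlapped its counterpart in the index, and in globin reads the CD1 groups alone did not, hindlimb replicate 3 being just above forelimb.

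**Figure D5:**
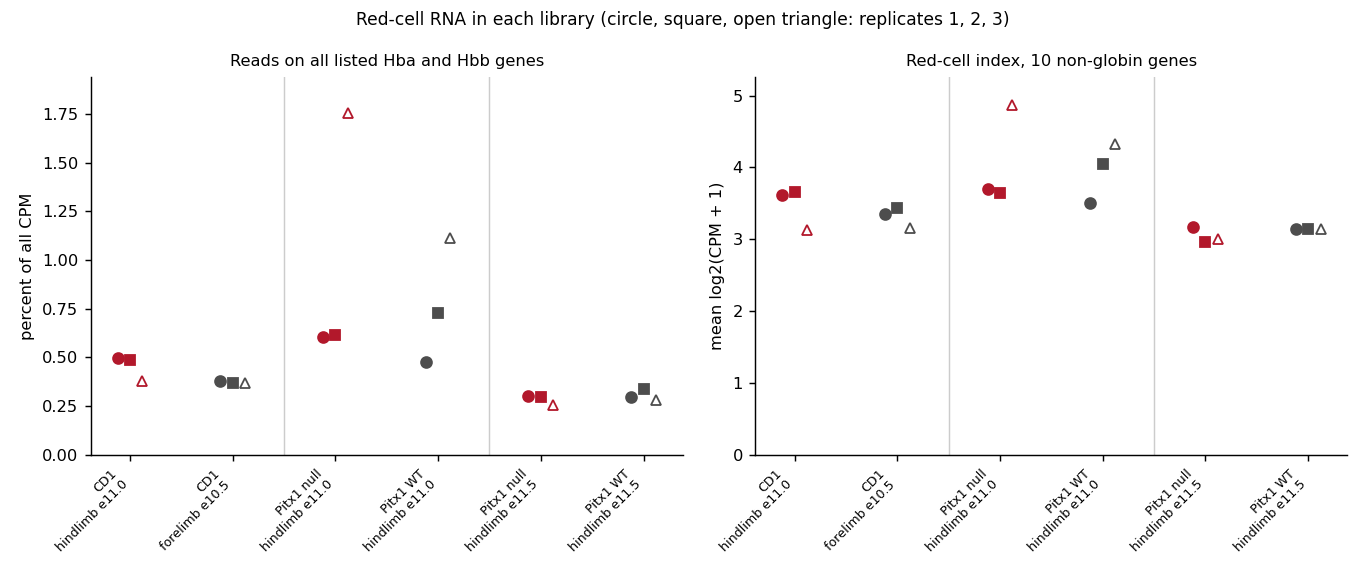
Percent of all CPM on listed Hba and Hbb genes and the red-cell index (mean log2(CPM + 1) of 10 genes) in each library. Both are highest in null replicate 3 at e11.0, at 1.755% and 4.87, followed by wild type replicate 3 at e11.0, at 1.111% and 4.33.

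Set against this index, the adult beta genes of CD1 stayed higher in hindlimb in 3 of 3 pairs. Relative to the index the log2 difference between hindlimb and forelimb was 1.34 for Hbb-bt and 1.32 for Hbb-bs, with groups that overlapped, and 0.24 for Hbb-y and 0.12 for Hba-x, with groups that did not. It was 0.30 for Hba-a1, 0.08 for Alas2 and -0.20 for Hbb-bh1, all with overlap, and Hbb-bh1 was higher in hindlimb in 0 of 3 pairs. How many of all listed genes part on this scale was not counted, in CD1 or at e11.0. At e11.0 Hbb-bs was 1.48, 1.62 and 1.68 above the index in null, against 0.91, 1.07 and 1.30 in wild type, a mean difference of 0.50 with no overlap. Hbb-y at e11.0 differed by 0.18 and Hba-x by -0.06 on that scale, both with overlap. At e11.5 the differences ranged from -0.17 to 0.10 and all groups overlapped. Alas2 relative to the globins, in CPM per kb, was 2.83 ± 0.242 per 1000 in CD1 hindlimb and 2.91 ± 0.446 in CD1 forelimb, 1.84 ± 0.0598 in null and 2.08 ± 0.274 in wild type at e11.0, and 2.76 ± 0.323 in null and 2.56 ± 0.103 in wild type at e11.5 (SD, n = 3 each).

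The genes varied together from library to library. After the mean of each table and run was taken out, Pearson's r between members over the 18 libraries ran from 0.227 for Hbb-bh1 with Hbb-bt to 0.952 for Hbb-y with Hba-a1, over 21 pairs of the 7 genes listed in all tables. Points in 1 table share their scaling, and differences between groups remain in them, so these values are descriptions. Over 12593 genes compared, the 7 members included, the 10 non-member genes most like the mean of the members were Rhd (r = 0.944), Tinagl1 (0.892), Sptb (0.89), Sdf2 (0.889), Hemgn (0.876), Acp5 (0.875), H2-T24 (0.873), B9d1 (0.873), Hand2os1 (0.873) and Gm1673 (0.869). Rhd, Sptb and Hemgn are red-cell genes of the lists, encoding a blood-group protein, beta spectrin of the membrane skeleton and a nuclear factor of red-cell precursors. In all, 52 non-member genes had r of at least 0.8.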

How the data were processed

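Embryonic mouse limb bud RNA was sequenced in 18 libraries, and 3 tables, 1 per comparison, were deposited. Reads were aligned with STAR, counted with featureCounts on GRCm38 (mm10) and analysed with edgeR, per the submitters' processing notes; versions, strand settings and treatment of reads with several matches are not given in the sources used here. The authors deposited CPM per library, with each column summing to 1000000, together with log2 fold changes, average log2 CPM, a likelihood-ratio score, p-values and adjusted p-values, per the file headers. CPM values were whole multiples of 1 read within 0.01 read in 100% of values of every library, so depth on listed genes was recovered as 24.5 to 45 M reads for CD1, 17.4 to 44.2 M for e11.0 and 30.2 to 53.6 M for e11.5 (M, 1000000), where 1 read is at most 0.0575 CPM. That depth covers counting error only.

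The tables were fitted separately in limma 3.58.1 (R 4.3.3, limma-trend) on log2(CPM + 1). The model held the group and a run term (replicates 1 and 2 against replicate 3, for which the CD1 titles name no run) and left 3 residual degrees of freedom. With either replicate 3 left out, the run term takes up the other, so the group effect then rests on replicates 1 and 2 alone. P-values are two-sided, adjusted by Benjamini-Hochberg across all genes of a table, with 0.05 as the threshold. A fold change on this scale understates that of low genes. edgeR 4.0.16 (quasi-likelihood) on the recovered reads was an alternative and called 881 genes in CD1, 1734 at e11.0 and 1630 at e11.5, where limma called 795, 1843 and 1455. Both fits were tested on simulated data. Symbols, coordinates and exonic lengths came from GENCODE release M 21, and promoters from RefSeq (GRCm38.p6), where 7 of 8 genes matched. Shares were compared with exact permutation tests over every split of the libraries of a table into equal groups. Same-numbered libraries deviated together from their group means, with correlations of 0.686, 0.798 and 0.939 (CD1), 0.662, 0.637 and 0.855 (e11.0) and 0.733, 0.83 and 0.914 (e11.5). A shift of replicate 3 shared by both groups could alone give such values, and libraries of different number were not compared. The correlations therefore cannot show that the numbers pair the samples, and pairs by number are a description. Calls of named genes that the block ended are given beside the result.

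All 8 genes were named in each comparison, list genes where they passed the threshold, and the 10 most similar genes by Pearson's r. The members and lists were chosen with earlier results of these data known.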

Additional observations from a re-analysis of the deposited data

How the results depend on the processing

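The count of globin genes and Alas2 called was 4 in CD1, 1 at e11.0 and 0 at e11.5. With no run term it was 0 in CD1 and 0 at e11.0, and with replicates 1 and 2 alone 0 at e11.0. At e11.0 the authors' deposited adjusted p gave 5 and edgeR on recovered reads 2. In CD1 the deposited adjusted p called Hba-x and Alas2 besides the 4 that limma called. Leaving out 1 library in turn gave 3 to 5 in CD1, 0 to 8 at e11.0 and 0 at e11.5. The replicate block in place of the run term gave 4, 1 and 0.

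The count of erythroid list genes called was 5 in CD1, 4 at e11.0 and 3 at e11.5. It was 0 in all 3 with no run term, 10 in CD1 and 9 at e11.0 by the authors' deposited adjusted p, and 0 at e11.0 and 1 at e11.5 with replicates 1 and 2 alone. At e11.0 trimmed-mean scaling gave 2, median-ratio scaling 1, upper-quartile scaling 2, edgeR 1 and the replicate block 7. Leaving out 1 library gave 3 to 6 in CD1, 0 to 20 at e11.0 and 1 to 9 at e11.5. Over all listed genes, leaving out 1 library gave 394 to 1191 calls in CD1, 116 to 5273 at e11.0, where 5273 is without wild type replicate 2, and 433 to 2627 at e11.5. In the same order the calls were 795, 1843 and 1455 as reported, 13, 5 and 11 with no run term, 471, 199 and 483 with replicates 1 and 2 alone and 1689, 2895 and 2644 by the authors' deposited adjusted p, and the replicate block gave 3442 at e11.0. The cause was not tested.

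Leaving out 1 library moved the difference in adult beta share (percentage points, hindlimb minus forelimb or null minus wild type) over 0.37 to 0.77 in CD1, 0.12 to 0.15 at e11.0 and -0.17 to 0.32 at e11.5. For Hba-x the range was -5.06 to 0.96 in CD1, -1.93 to 0.15 at e11.0 and -1.18 to 0.25 at e11.5. With no division by length the adult beta differences were 0.71, 0.16 and 0.01.

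Among fold changes of single members, 376 of the recomputed values kept direction and side of the threshold, 18 newly passed, 13 no longer passed and 25 changed sign, none of the last a called gene. With replicates 1 and 2 alone, Hbb-bh1 in CD1 was 0.058. At e11.0 Hba-x was -0.086, Hba-a1 -0.065, Hba-a2 -0.041 and Alas2 -0.193. At e11.5 Hbb-bs was 0.142 and Alas2 -0.014. Leaving out either replicate 3 gives the same fold changes as replicates 1 and 2 alone, so the ranges that follow include those values. Leaving out 1 library gave -0.087 to 0.058 for Hbb-bh1 in CD1. At e11.0 it gave -0.086 to 0.229 for Hba-x, -0.065 to 0.353 for Hba-a1, -0.041 to 0.436 for Hba-a2 and -0.19 to 0.32 for Alas2. At e11.5 it gave -0.183 to 0.0145 for Hbb-bh1, -0.26 to 0.14 for Hbb-bs and -0.094 to 0.104 for Alas2. With 3 libraries a group, 3 residual degrees of freedom and as few as 40 reads behind a value, small differences in Hbb-bt in particular could not be resolved.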
